A study of Capra hircus with 12 samples.

Results

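The miRNAs described here are those linked with blood vessels and red blood cells that the deposited tables list as arms of miR-126, miR-144, miR-451 and miR-486. All mature arms with these names were taken, which gave 4 of the 376 miRNAs listed: chi-miR-126-3p, chi-miR-126-5p, chi-miR-451-5p and chi-miR-144-5p. No arm of miR-486 was listed, and chi-miR-144 and chi-miR-451 were each listed with the 5p arm alone. All 4 miRNAs passed the low-count filter used here, above 5 CPM (the count scaled to a common library total) in at least 2 libraries, which 300 of the 376 miRNAs did.

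The libraries were made from secondary hair follicles (SHFs), from which the cashmere fibre grows, of Liaoning cashmere goats aged 1.5 years. SHFs were dissected under a microscope from skin of the back over the scapula, and the labels name no treatment of the goats or genetic change. Small RNA was sequenced in 1 library labelled female and 1 labelled male in each of 6 months: February and March for telogen (4 libraries), May for early anagen (2 libraries), September for mid-anagen (2 libraries), and November and December for catagen (4 libraries). At each time point 3 male and 3 female goats were sampled, and how goats were combined into libraries is not given in the sources used here, so the p-values below measure the spread between these libraries only.

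miR-126 is made from an intron of EGFL7, a gene of endothelial cells, the cells that line blood vessels. Its 3p arm represses SPRED1 and so promotes signalling by vascular endothelial growth factor, and its 5p arm represses DLK1 in endothelial cells. Both arms come from 1 hairpin, which Dicer cuts into a duplex of which one strand is usually kept. miR-144 and miR-451 are made from 1 primary transcript that GATA1 switches on in red cell precursors, and miR-451 is cut by AGO2 rather than by Dicer and stays abundant in mature red cells. In the RefSeq genes of goat assembly ARS1.2, where 3 of the 4 miRNA genes were found by symbol, MIR126 lies inside EGFL7, and MIR144 and MIR451 are each other's nearest gene.

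The files held both signals at very different levels. A TPM here is a miRNA's count scaled to the total of miRNA counts in its library, by the authors. By mean TPM over the 12 libraries, chi-miR-126-3p ranked 20 of 376 with 9692 ± 1222 (SD, n = 12), and chi-miR-126-5p ranked 79 with 485.5 ± 188. chi-miR-451-5p ranked 183 with 23.6 ± 19.5, and chi-miR-144-5p ranked 232 with 9.57 ± 10.1. The endothelial miRNA was therefore among the abundant miRNAs of these SHFs and the red cell miRNAs were not, although the reads do not measure how well each sequence entered a library. In bulk samples such as these, fewer cells of a type and less RNA per cell cannot be told apart.

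Steadiness over the year ran in the same order as abundance. The coefficient of variation of TPM was 12.6% for chi-miR-126-3p, 38.7% for chi-miR-126-5p, 82.7% for chi-miR-451-5p and 106% for chi-miR-144-5p, against a median of 33.1% over the 300 tested miRNAs. Ranked from the most to the least variable of the 300, chi-miR-144-5p stood at 5, chi-miR-451-5p at 13, chi-miR-126-5p at 110 and chi-miR-126-3p at 286. The highest library exceeded the lowest 1.40-fold for chi-miR-126-3p and 2.88-fold for chi-miR-126-5p, but 21.4-fold for chi-miR-451-5p and 33.0-fold for chi-miR-144-5p. After TMM, the normalization used for the tests below, the coefficients of variation of CPM were 21.5%, 28.7%, 69.97% and 92.0% in the same order of miRNAs, against a median of 29.4%, and the highest library exceeded the lowest 2.03-fold, 2.27-fold, 14.7-fold and 21.8-fold. chi-miR-126-5p thus lay above the median on the TPM scale and just below it after TMM. The depth was 3135292 to 5788032 counts per library, so that 3 counts, the floor used here, correspond to a TPM of 0.518 to 0.957. The 12 libraries held 530963 counts of chi-miR-126-3p and 26107 of chi-miR-126-5p, but 1285 of chi-miR-451-5p and 506 of chi-miR-144-5p, so counting error weighs most on the red cell miRNAs.

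**Figure D1:**
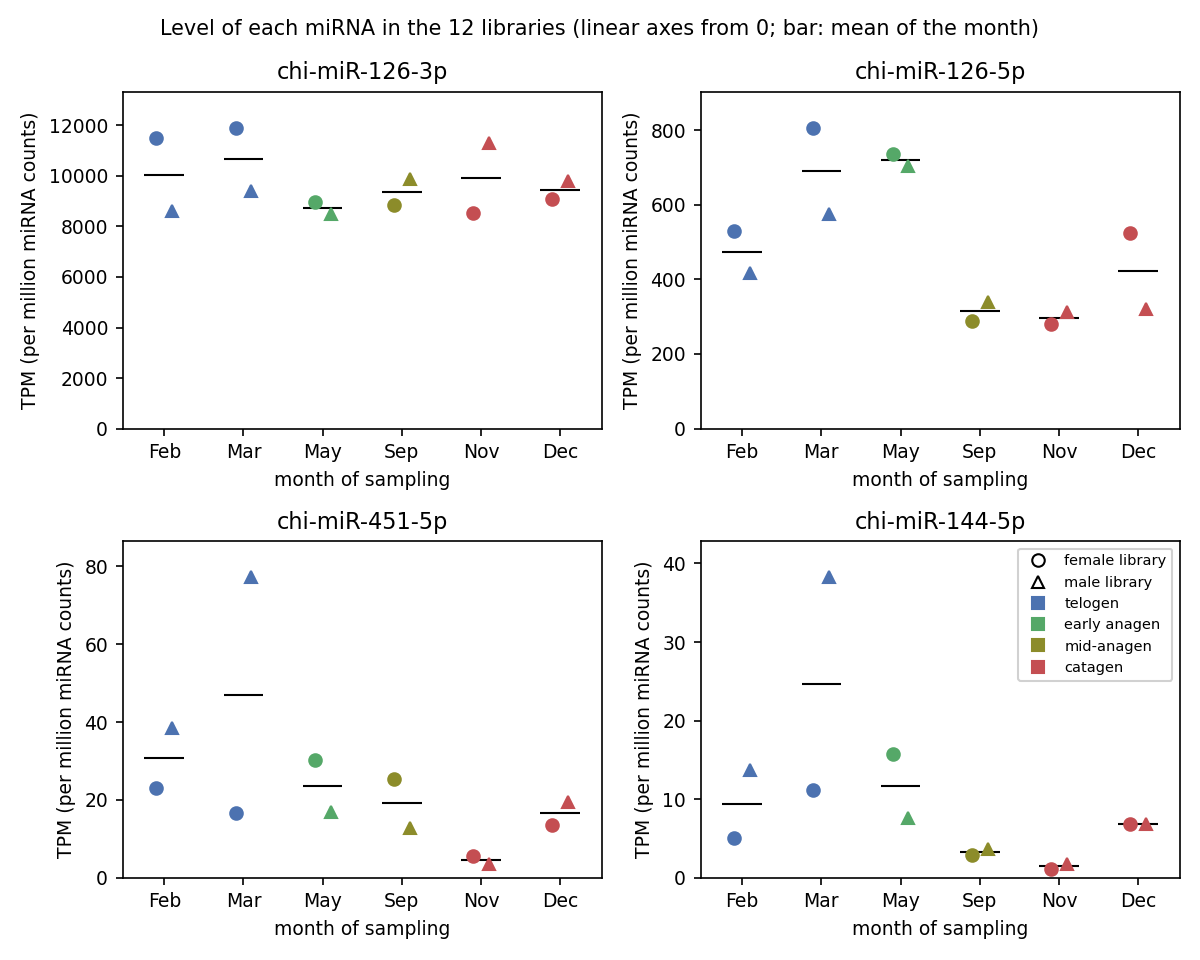
TPM (linear axis from 0) of each of the 4 miRNAs by month of sampling, with circles for female libraries, triangles for male libraries, colours for the phases and bars for the mean of a month. chi-miR-126-3p stays between 8473 and 11894 throughout, while chi-miR-451-5p and chi-miR-144-5p peak in the male March library, at 77.2 and 38.2, and are lowest in November.

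chi-miR-126-3p, the endothelial strand that is kept, had TPM values that overlapped between all phases, whereas after TMM, the scaling of the tests, May was the lowest, with 6877 ± 412 CPM (SD, n = 2) beside 9506 ± 2223 in telogen (n = 4), 10632 ± 282 in September (n = 2) and 11278 ± 1497 in catagen (n = 4). In telogen its TPM was 11493 and 8606 in the female and male February libraries and 11894 and 9416 in the female and male March libraries. It was 8951 and 8473 in the female and male May libraries, and 8846 and 9880 in those of September. In catagen it was 8539 and 11305 in the female and male November libraries and 9095 and 9802 in those of December. Libraries of every phase overlapped with those of the next, and the female libraries were the higher in telogen but the lower in catagen. By the mean of a month the order was March (10655 ± 1752, SD, n = 2), February (10050 ± 2042), November (9922 ± 1956), December (9448 ± 499.6), September (9363 ± 731) and May (8712 ± 338), and neighbours in this order overlapped.

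chi-miR-126-5p, the less abundant strand, was high from March to May and low from September to November. Its TPM was 530 and 416 in the female and male February libraries, and 805 and 574 in those of March. It was 735 and 704 in the female and male May libraries, and 289 and 339 in those of September. In catagen it was 280 and 311 in the female and male November libraries and 523 and 321 in those of December. Both May libraries lay above both September libraries with no overlap, and the female December library stood apart from the other 3 catagen libraries. Ordered by month the means were 720 ± 22.1 in May, 690 ± 164 in March, 473 ± 80.6 in February, 422 ± 142.7 in December, 314 ± 35.9 in September and 295 ± 22.4 in November. Of these neighbours, only March and February did not overlap. How many other tested miRNAs separate in these ways was not counted, here or for the comparisons below. With libraries scaled by their totals, as in TPM, the median log2 fold change of all tested miRNAs from May to September was -0.46.

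chi-miR-451-5p, an abundant miRNA of red cells, was lowest in November. Its TPM was 23.2 and 38.5 in the female and male February libraries, and 16.7 and 77.2 in those of March. It was 30.2 and 16.9 in the female and male May libraries, and 25.4 and 12.9 in those of September. In catagen it was 5.50 and 3.61 in the female and male November libraries and 13.6 and 19.6 in those of December. The male March library was the highest of the 12, while the female March library lay within the range of December. The November values came from 19 and 14 counts, with 95% Poisson intervals of 3.31 to 8.59 and 1.97 to 6.05, which cover counting error only. By month the means were 46.9 ± 42.8 in March, 30.8 ± 10.9 in February, 23.6 ± 9.42 in May, 19.1 ± 8.81 in September, 16.6 ± 4.27 in December and 4.56 ± 1.34 in November, and only December and November, as neighbours in this order, did not overlap.

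chi-miR-144-5p, from the same primary transcript, had its highest and lowest months in common with chi-miR-451-5p. Its TPM was 5.01 and 13.7 in the female and male February libraries, and 11.2 and 38.2 in those of March. It was 15.7 and 7.65 in the female and male May libraries, and 2.96 and 3.71 in those of September. In catagen it was 1.16 and 1.80 in the female and male November libraries and 6.89 and 6.79 in those of December. Both May libraries exceeded both September libraries, a separation not counted over all tested miRNAs, whereas telogen overlapped with catagen through the female February library. The November values rested on 4 and 7 counts, with Poisson intervals of 0.315 to 2.96 and 0.725 to 3.72. The order of the month means was March (24.7 ± 19.1), May (11.7 ± 5.70), February (9.38 ± 6.17), December (6.84 ± 0.0707), September (3.34 ± 0.530) and November (1.48 ± 0.453), with no overlap between December and September or between September and November.

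The design follows the annual cycle of the SHF, so consecutive phases were compared. The test was edgeR's quasi-likelihood test on the counts, in a single fit of the 12 libraries after TMM normalization, which corrects for the composition of a library, and a miRNA was called with a Benjamini-Hochberg adjusted p under 0.05 over the 300 miRNAs and at least a 2-fold change. The factors of this correction ran from 1.01 to 1.23 in telogen and from 0.813 to 0.916 in catagen, with 1.25 and 1.29 in May and 0.848 and 0.912 in September. When libraries were scaled by their totals instead, this moved the median log2 fold change of all tested miRNAs from 0.07 to -0.46 for May to September, from 0.00 to 0.19 for telogen to May and from 0.00 to 0.35 for catagen to telogen. The direction of a small change therefore depends on the scaling, and each such case is given below.

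From catagen to telogen, the phase comparison with 4 libraries on each side, 1 of the 4 miRNAs was called, against 10.7% of all 300 tested. chi-miR-451-5p rose 2.72-fold, by 1.45 on the log2 scale (SE 0.52, adjusted p = 0.0476 with edgeR's quasi-likelihood test), from a TPM of 10.6 ± 7.41 in catagen to 38.9 ± 27.1 in telogen (SD, n = 4 each). chi-miR-144-5p had a similar log2 fold change of 1.56 (SE 0.58) that the same test did not call (adjusted p = 0.0552). Its CPM after TMM was 4.73 ± 3.43 in catagen and 14.7 ± 11.3 in telogen, and its TPM 4.16 ± 3.11 and 17.0 ± 14.6. The phases overlapped for both. chi-miR-126-3p had a log2 fold change of -0.25 (SE 0.16, adjusted p = 0.224), which was 0.10 with library totals, and chi-miR-126-5p one of 0.36 (SE 0.22, adjusted p = 0.201).

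The call of chi-miR-451-5p lay close to the threshold and could be lost by leaving out 1 library, also 1 of neither phase. It was lost in 8 of the 12 fits that left out 1 library, with log2 fold changes from 1.02 without the male March library (adjusted p = 0.101) to 1.94, and over all alternatives the adjusted p ranged from 0.00868 to 0.318. In a fit without both November libraries, chosen after seeing the data, the log2 fold change was 0.89 (adjusted p = 0.318), and without both December libraries it was 2.59 (adjusted p = 0.0131). For chi-miR-144-5p the same fits gave 0.97 (adjusted p = 0.337) and 2.97 (adjusted p = 0.0181), and the adjusted p of its alternatives ranged from 0.0136 to 0.337. Among these, DESeq2 (1.69, adjusted p = 0.0136), RLE size factors (1.64, adjusted p = 0.0404), the likelihood-ratio test (1.60, adjusted p = 0.0226) and library totals (1.97, adjusted p = 0.0278) called chi-miR-144-5p.

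**Figure D2:**
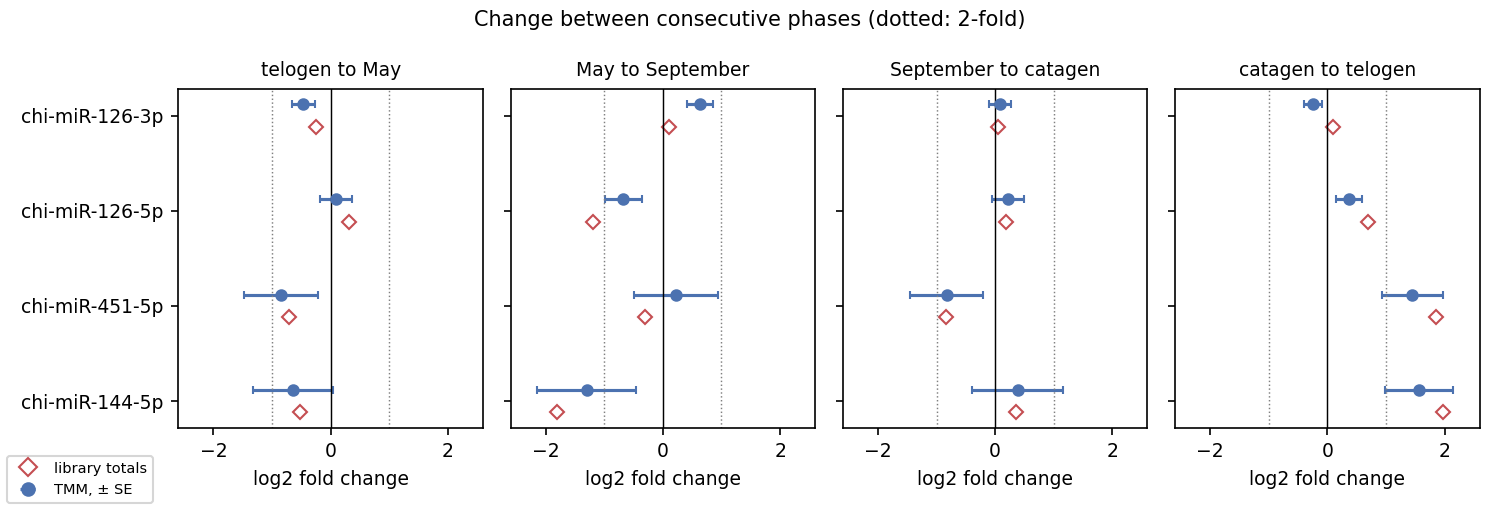
Log2 fold change of the 4 miRNAs between consecutive phases, with filled circles for TMM normalization with the standard error, open diamonds for scaling by library totals and dotted lines at a 2-fold change. The largest positive changes are those of chi-miR-451-5p (1.45) and chi-miR-144-5p (1.56) from catagen to telogen, and chi-miR-126-3p stays within the 2-fold lines in all 4 comparisons under both scalings.

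From May to September, where the most miRNAs of all 4 phase comparisons were called (18.3% of the 300), edgeR's quasi-likelihood test called 0 of the 4 miRNAs. Of these, 1 had an unadjusted p under 0.05, as did 43.3% of the 300, and DESeq2 and the likelihood-ratio test called 0. chi-miR-126-3p had a log2 fold change of 0.63 (SE 0.22, adjusted p = 0.0451), under the 2-fold minimum, and with library totals it was 0.10 (adjusted p = 0.699), in a range of 0.00517 to 0.699 over the alternatives. chi-miR-126-5p had a log2 fold change of -0.67 (SE 0.31, adjusted p = 0.117). With library totals it was -1.196 (adjusted p = 0.0123) and was called, in a range of 0.00323 to 0.333. chi-miR-144-5p had a log2 fold change of -1.30 (SE 0.85, adjusted p = 0.260), and it was called in the fit of May and September alone (-1.40, adjusted p = 0.0129), in a range of 0.0129 to 0.582. chi-miR-451-5p had a log2 fold change of 0.23 (SE 0.72, adjusted p = 0.831), which turned to -0.31 with library totals.

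From telogen to May, edgeR's quasi-likelihood test called 0 of the 4 miRNAs, against 2.33% of all tested, and DESeq2 and the likelihood-ratio test also called 0. Of the 4, chi-miR-126-3p alone had an unadjusted p under 0.05, with a log2 fold change of -0.47 (SE 0.20, adjusted p = 0.149), where 29.3% of the 300 did. The log2 fold changes of chi-miR-451-5p and chi-miR-144-5p were -0.85 (SE 0.64) and -0.64 (SE 0.68), and that of chi-miR-126-5p was 0.09 (SE 0.27). After TMM the 2 May libraries held the lowest levels of chi-miR-126-3p, at 7168 and 6585 CPM, beside 7519 CPM in the male February library, the next above them.

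From September to catagen, 0 of the 4 miRNAs and 0% of all tested were called. None of the 4 had an unadjusted p under 0.05, while 23 of the 300 did, and DESeq2 and the likelihood-ratio test called 1 miRNA each, which was not one of the 4. The log2 fold changes were 0.09 (SE 0.19) for chi-miR-126-3p, 0.21 (SE 0.27) for chi-miR-126-5p, 0.38 (SE 0.78) for chi-miR-144-5p and -0.83 (SE 0.62) for chi-miR-451-5p.

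The arms of miR-126 did not keep a constant ratio through the year. The ratio of 3p to 5p counts needs no scaling between libraries, since both arms are counted in the same library. It was 21.7 and 20.7 in the female and male February libraries, and 14.8 and 16.4 in those of March. It was 12.2 and 12.04 in the female and male May libraries, and 30.6 and 29.1 in those of September. In catagen it was 30.5 and 36.3 in the female and male November libraries and 17.4 and 30.5 in those of December. May held the lowest ratios, with no overlap with any other month, and the female December library lay within the range of telogen. The 5p arm made up 7.59% (95% Wilson interval 7.34% to 7.85%) and 7.67% (7.37% to 7.98%) of miR-126 counts in the May libraries. In the September libraries it made up 3.16% (3.01% to 3.32%) and 3.32% (3.17% to 3.48%).

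**Figure D3:**
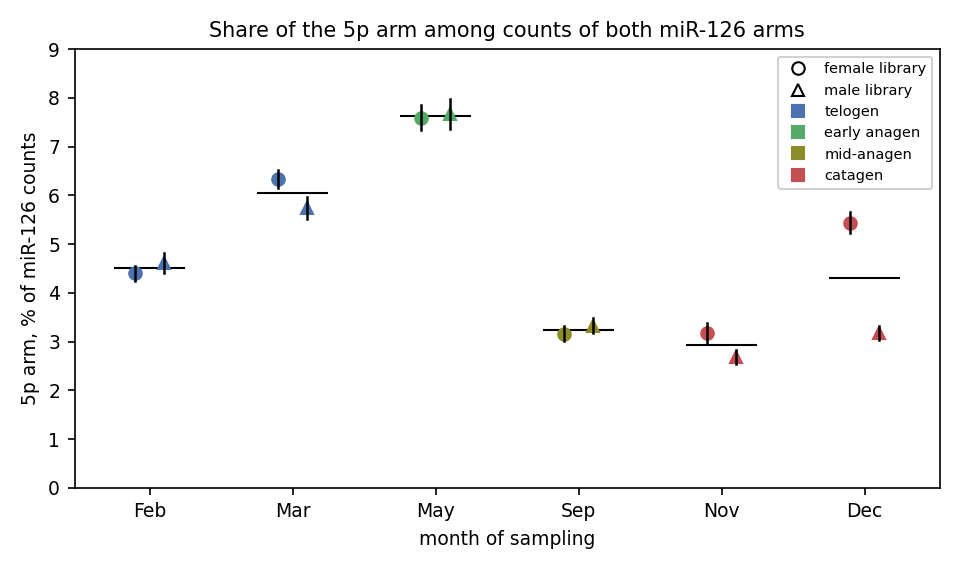
Share of chi-miR-126-5p among the counts of both miR-126 arms (%, axis from 0) in each library by month, with 95% Wilson intervals of counting error as vertical lines and the month means as bars. The share climbs from 4.40% and 4.61% in February to 7.59% and 7.67% in May and is at 3.16% and 3.32% in September, and the female December library (5.44%) lies apart from the male one (3.17%).

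The ratio was tested with limma on the log2 ratio of the arms, 1 count added to each, for the 82 precursors with both arms past the filter, and a ratio was called with an adjusted p under 0.05 over the 82. From May to September the miR-126 ratio rose 2.47-fold, by 1.30 on the log2 scale (SE 0.34, adjusted p = 0.00409), from 12.1 ± 0.0975 to 29.9 ± 1.09 (SD, n = 2 each). It was called in each of the alternatives, with an adjusted p between 0.000791 and 0.0315. Arm ratios changed widely in this comparison, as 40.2% of the 82 precursors were called, 23 with a higher and 10 with a lower 3p share in September, and miR-126 ranked 20 by p. From September to catagen the log2 change was -0.11 (SE 0.29, adjusted p = 0.965 with limma), and 0% of the precursors were called, with 4 at an unadjusted p under 0.05 and none called with limma's trend.

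From catagen to telogen the miR-126 ratio fell by 0.61 on the log2 scale (SE 0.24, adjusted p = 0.0432 with limma), from 28.7 ± 8.01 to 18.4 ± 3.34 (SD, n = 4 each), in a comparison where 48.8% of the precursors were called. This call was lost in 8 of the 12 fits without 1 library, the weakest being -0.48 without the male November library (adjusted p = 0.139). Without both November libraries, a fit chosen after seeing the data, the change was -0.34 (adjusted p = 0.383), and without both December libraries it was -0.87 (adjusted p = 0.00952). The adjusted p of all alternatives ranged from 0.00347 to 0.383. From telogen to May the ratio changed by -0.59 (SE 0.29, adjusted p = 0.158), which was not called, against 9.76% of the precursors.

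Arms of miRNAs linked with smooth muscle and pericytes, cells of the layer around the endothelium, were read beside those of miR-126. For the more abundant arm of miR-143, however, the paper reports a strong in situ hybridization signal in the follicle matrix. It also reports more of this arm in SHFs than in primary follicles or epidermis. The values of miR-143 can therefore not be assigned to the vessel wall, and their cell source was not tested. The ratio of miR-143 also rose from May to September, by 1.51 on the log2 scale (SE 0.30, adjusted p = 0.000472), and fell by 1.01 from catagen to telogen (SE 0.21, adjusted p = 0.00122). That of miR-145 changed by 0.07 from May to September (SE 0.30, adjusted p = 0.851) and rose by 0.65 from catagen to telogen (SE 0.21, adjusted p = 0.0175). Of the precursors linked with white cells or angiogenesis and with both arms tested, none was called in these comparisons. Their log2 changes from May to September were negative, at -0.73 for miR-221 (SE 0.30, adjusted p = 0.0603 with limma), -0.50 for miR-130a (SE 0.34) and -0.23 for miR-223 (SE 0.41).

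The balance of red cell to endothelial signal was read from the 2 leading members, as the number of chi-miR-126-3p counts for each count of chi-miR-451-5p. It was 496 and 223.4 in the female and male February libraries and 713 and 122 in those of March. It was 296.2 and 501 in the female and male May libraries and 349 and 766 in those of September. In catagen it was 1553 and 3134 in the female and male November libraries and 671 and 500 in those of December. November lay apart from every other month, while December fell within the range of telogen. The log2 ratio of chi-miR-451-5p to chi-miR-126-3p was -8.29 ± 1.15 in telogen and -10.14 ± 1.201 in catagen (SD, n = 4 each), beside -8.59 ± 0.54 in May and -9.01 ± 0.80 in September. Catagen was lower than telogen by 1.85, which did not pass a two-sided exact permutation test (p = 0.114, where the smallest p that 4 against 4 libraries allow is 0.0286). With chi-miR-144-5p added to the numerator the difference was -1.89 (exact permutation p = 0.114), and with both arms of miR-126 in the denominator it was -1.83 (exact permutation p = 0.143).

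**Figure D4:**
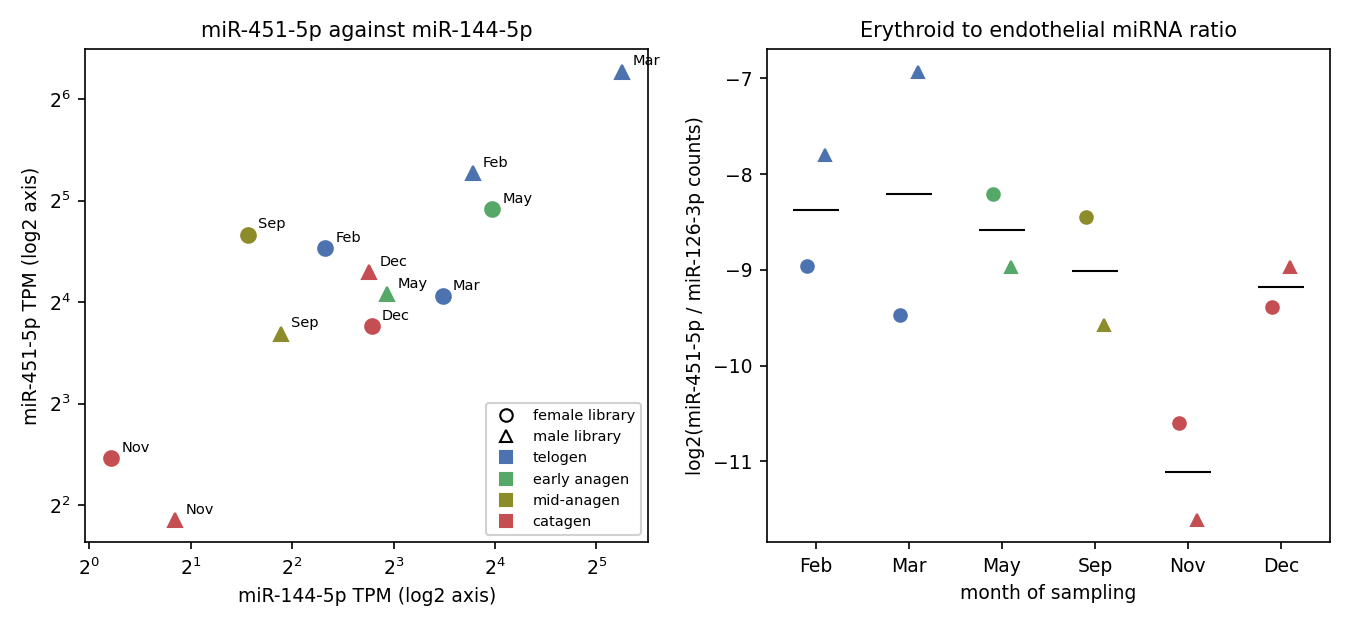
Left, TPM of chi-miR-451-5p against that of chi-miR-144-5p in the 12 libraries on log2 axes, labelled by month; right, log2 ratio of chi-miR-451-5p to chi-miR-126-3p counts by month, with bars for the month means (circles female, triangles male libraries, colours for the phases). The male March library is highest on both left axes, and both November libraries are lowest in the ratio.

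Of the pairs from the same transcript, the red cell pair passed the correlation test over the libraries and the endothelial pair did not. Over the 12 libraries, TMM-normalized log2 CPM of chi-miR-144-5p and chi-miR-451-5p correlated with a Pearson's r of 0.80 (permutation p = 0.00193, adjusted over the 6 pairs of members 0.0116) and a Spearman's rho of 0.69 (permutation p = 0.0154, adjusted 0.0924). Without the male March and female November libraries, the farthest from the median, r was 0.61 (permutation p = 0.0577), so the relation rests in part on them. It was 0.53 among the 6 female libraries (permutation p = 0.278) and 0.97 among the 6 male libraries (permutation p = 0.00556), and 0.67 for deviations from the month means (permutation p = 0.219). The ratio of their counts was not constant, with 1.49 counts of chi-miR-451-5p for each of chi-miR-144-5p in the female March library and 8.56 in the female September library.

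Both arms of miR-126 had an r of -0.22 (permutation p = 0.493, adjusted 0.592) and a rho of -0.11 (permutation p = 0.733). This r was 0.15 with library totals and 0.65 for deviations from the month means (permutation p = 0.281), so its direction depends on the scaling and on the months. The other 4 pairs did not pass the adjusted threshold. Their r was -0.57 for chi-miR-126-3p with chi-miR-144-5p, -0.50 for chi-miR-126-3p with chi-miR-451-5p, 0.48 for chi-miR-126-5p with chi-miR-144-5p and 0.13 for chi-miR-126-5p with chi-miR-451-5p, with adjusted permutation p of 0.156, 0.171, 0.171 and 0.698. With library totals the r of chi-miR-126-5p with chi-miR-144-5p was 0.71 (adjusted permutation p = 0.0295). Their rho was -0.45, -0.37, 0.54 and -0.01, in the same order, with adjusted permutation p of 0.297, 0.359, 0.224 and 0.991. Without both May libraries, the farthest from the median of chi-miR-126-3p, the r of its pairs was 0.07 with chi-miR-126-5p, -0.68 with chi-miR-144-5p and -0.74 with chi-miR-451-5p. Without the female March and female May libraries, the farthest for chi-miR-126-5p, r was 0.39 with chi-miR-144-5p and 0.16 with chi-miR-451-5p.

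The tested miRNAs whose profile lay nearest to each member were found from the root mean square difference of centred log2 CPM over the 12 libraries. For chi-miR-126-3p they were chi-miR-342-3p (0.12), novel_131 (0.16) and chi-miR-155-5p (0.17), beside a median of 0.51 over all others. For chi-miR-126-5p they were chi-miR-194 (0.18), chi-miR-532-3p (0.19) and chi-miR-10b-3p (0.21), beside a median of 0.58. The profile of chi-miR-126-5p ranked 161 of 299 from that of chi-miR-126-3p, near the middle of all tested miRNAs. For chi-miR-144-5p the nearest were chi-miR-3959-3p (0.61), chi-miR-451-5p (0.67) and chi-miR-487b-3p (0.68), beside a median of 1.17. For chi-miR-451-5p they were chi-miR-409-3p (0.59), chi-miR-379-3p (0.64) and chi-miR-411a-3p (0.66), beside a median of 1.05, and chi-miR-144-5p ranked 5 of 299. Apart from chi-miR-451-5p, these neighbours of the red cell miRNAs were low themselves, with mean TPMs from 4.90 (chi-miR-409-3p) to 14.0 (chi-miR-3959-3p). Counting error therefore enters these distances.

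Between the sexes of a month, the widest differences were those of the red cell miRNAs in March. With month as a term, 0 of the 4 miRNAs and 0% of the 300 were called by edgeR's quasi-likelihood test. None of the 4 and 34 of the 300 had an unadjusted p under 0.05, and DESeq2 called 0 and the likelihood-ratio test 1 miRNA, not one of the 4. chi-miR-451-5p was higher in the male library in 3 of 6 months and chi-miR-144-5p in 5 of 6, with male minus female log2 differences of 1.95 and 1.51 in March and of -0.87 and -1.05 in May.

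For chi-miR-126-3p the male library was the lower of the month in telogen, with male minus female differences in log2 CPM of -0.60 (February) and -0.58 (March). It was the higher in catagen, with differences of 0.35 (November) and 0.19 (December), beside -0.12 in May and 0.05 in September. The change from telogen to catagen was 0.87 higher on the log2 scale in the male than in the female libraries (SE 0.20). It ranked 6 of the 300 by p but was not called (adjusted p = 0.0815 with edgeR's quasi-likelihood test), where 1.33% of the 300 were. With DESeq2 the adjusted p was 0.00363, and over the alternatives it ranged from 0.00363 to 0.104. For chi-miR-126-5p, chi-miR-144-5p and chi-miR-451-5p the differences were 0.34 (SE 0.38), -1.34 (SE 1.08) and -0.97 (SE 0.88), and none was called. Each sex had 2 libraries in a phase.

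Markers of other cells that the dissected SHFs could hold were read beside the members. Of the red cell lineage, 3 miRNAs were listed, the third being chi-miR-363-3p, with a TPM of 1.48 to 10.1 and a log2 fold change from catagen to telogen of 0.88 (SE 0.36, adjusted p = 0.0763). Summed TPM of the 3 was 33.4 to 124 in telogen, 30.9 to 55.4 in May, 22.3 to 29.8 in September and 8.50 to 30.7 in catagen. With edgeR's quasi-likelihood test the call of chi-miR-451-5p was the only one of this list in the 4 phase comparisons. DESeq2 and the likelihood-ratio test each called 2 of the 3 from catagen to telogen. The list is no separate evidence, since chi-miR-451-5p and chi-miR-144-5p are the members themselves and it adds chi-miR-363-3p alone. Its median log2 fold change from catagen to telogen, 1.45 beside 0.00 over all tested, is the value of chi-miR-451-5p.

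Of white cells and platelets, 4 miRNAs were listed, chi-miR-223-3p, chi-miR-223-5p, chi-miR-150 and chi-miR-155-5p, and miR-142 was not. chi-miR-223-3p, a miRNA of neutrophils and platelets, also rose from catagen to telogen, by 1.36 on the log2 scale (SE 0.32, adjusted p = 0.00722). Its TPM was 43.7, 95.7, 47.7 and 46.0 in the telogen libraries (female and male February, female and male March) and 9.55, 15.7, 23.8 and 21.7 in the catagen libraries (female and male November, female and male December), with no overlap. The share of all tested miRNAs without overlap between these phases was not counted. The other arm, chi-miR-223-5p, had a log2 fold change of 0.90 (SE 0.29, adjusted p = 0.0316 with edgeR's quasi-likelihood test), under the 2-fold minimum. chi-miR-150, of lymphocytes, had a log2 fold change of -0.05 (SE 0.29, adjusted p = 0.884), and chi-miR-155-5p, the most abundant of the list, one of -0.38 (SE 0.17, adjusted p = 0.0981). From telogen to May, chi-miR-223-3p fell by 1.64 (SE 0.42, adjusted p = 0.0388) and chi-miR-223-5p by 1.59 (SE 0.38, adjusted p = 0.0341), and the latter rose by 1.38 from May to September (SE 0.42, adjusted p = 0.0244). In that last comparison chi-miR-223-3p was not called, with a log2 fold change of 0.97 (SE 0.46, adjusted p = 0.121 with edgeR's quasi-likelihood test). Summed TPM of the 4 was 442 to 664 in telogen and 393 to 540 in catagen, with a median log2 fold change of 0.42. The part of blood left in the dissected follicles in these values was not tested.

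From catagen to telogen, 0 of 4 smooth muscle and pericyte, 0 of 6 skin epithelium, 0 of 5 dermal fibroblast and papilla and 0 of 4 tested skeletal muscle miRNAs were called by edgeR's quasi-likelihood test, beside 10.7% of all tested. At an unadjusted p under 0.05 they held 3, 2, 4 and 1 miRNAs, beside 47.3% of all tested, and of them DESeq2 called 1, of skin epithelium, and the likelihood-ratio test 0. Their median log2 fold changes were -0.36, 0.17, 0.55 and 0.22. Of 6 miRNAs linked with angiogenesis, chi-miR-296-3p alone was called, lower in telogen (log2 fold change -1.28, SE 0.26, adjusted p = 0.00286). From May to September, chi-miR-143-3p of the smooth muscle list rose by 1.17 (SE 0.20, adjusted p = 0.00131 with edgeR's quasi-likelihood test). Its rise cannot be assigned to the vessel wall, since the paper reports its signal in the follicle matrix. By the same test, chi-miR-1 of muscle rose by 1.19 (SE 0.33, adjusted p = 0.0146) and chi-miR-200a of epithelium by 1.43 (SE 0.23, adjusted p = 0.00131). No other member of these 3 lists was called in that comparison, and their members had no common direction. Of the uncalled members, negative log2 fold changes were -0.52 for chi-miR-133a-3p, -0.77 for chi-miR-133a-5p and -0.19 for chi-miR-133b of muscle. They were also -0.32 for chi-miR-143-5p, and -0.27 for chi-miR-141 and -0.14 for chi-miR-200c of epithelium. Positive ones included 0.68 for chi-miR-145-3p (adjusted p = 0.0252 with edgeR's quasi-likelihood test) and 0.62 for chi-miR-145-5p of the smooth muscle list. In epithelium they included 0.33 for chi-miR-200b and 0.37 for chi-miR-429. The list medians were 0.65 for smooth muscle and pericytes, -0.35 for skeletal muscle and 0.21 for skin epithelium, beside 0.07 over all tested. All 5 fibroblast miRNAs and 0 of the angiogenesis miRNAs had an unadjusted p under 0.05 in that comparison, beside 43.3% of all tested. Neither edgeR's tests nor DESeq2 called any, as each fibroblast change was under 2-fold. With edgeR's quasi-likelihood test it was -0.85 for chi-miR-199a-3p (adjusted p = 0.00677), -0.79 for chi-miR-199a-5p (adjusted p = 0.00590) and -0.59 for chi-miR-199b-5p (adjusted p = 0.0125). It was -0.53 for chi-miR-214-5p (adjusted p = 0.110) but 0.53 for chi-miR-214-3p (adjusted p = 0.0480). The fibroblast list median was -0.59. chi-miR-126-3p stood at 0.63 where chi-miR-143-3p, whose cell source was not tested, stood at 1.17, and the difference between them was not tested.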

How the data were processed

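Small RNA of 12 SHF libraries was analysed. Trimmed reads were mapped to CHIR_2.0 by the authors, who predicted candidates with miREvo and mirDeep2, compared them with the goat entries of miRBase and counted miRNAs with Bowtie (version 0.12.9 in the submitters' processing notes). For each of 376 miRNAs they deposited an unnormalized count and its TPM. The deposited TPM differs from the count scaled to its library's total by at most 0.00499 and so carries no correction for composition. How reads matching several miRNAs were assigned is not given in the sources used here.

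The deposited counts were tested with edgeR 4.0.16, limma 3.58.1 and DESeq2 1.42.0 in R 4.3.3, and permutations were run in Python 3.11.15 with scipy 1.17.1 (100000 resamples for correlations over 12 libraries). A standard error of edgeR's fit is the size of the log2 change over the root of its F statistic. CPM on the log2 scale has a prior count of 1. The edgeR and limma tests were run on simulated data with known changes, which were larger than the changes of the main fits given above. That run does not measure how the tests perform at the smaller changes. Named miRNAs are all listed arms of miR-126, miR-144, miR-451 and miR-486, for each of them the 3 nearest tested profiles, and members of lists for red cells, endothelium (miR-126 alone), smooth muscle and pericytes, white cells and platelets, skin epithelium, dermal fibroblasts, skeletal muscle and angiogenesis. Members and lists were chosen with earlier results of these data known. Counts of both libraries of a month differed by 70.0 to 667 times the degrees of freedom of a chi-square test, so none was taken as deposited again. Alternatives were library totals, RLE size factors, DESeq2, the likelihood-ratio test, other filters (none, or above 50 CPM), no minimum fold, sex as a block, fits of only the groups compared, 1 library left out at a time, and for arm ratios a pseudocount of 0.5 and limma's trend. No sequences or coordinates are given, because no genome of the files' build was used here.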

Additional observations from a re-analysis of the deposited data

Results flagged for a closer look

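The TPM of chi-miR-126-5p in the female December library was 522.81, and the gap to the nearest of the other 3 catagen libraries, which lay between 279.53 and 320.96, made up 0.830 of the range of the 4, just above Dixon's 95% critical value. It was the only value singled out among 14 groups of 4 libraries, made of 7 measures in telogen and in catagen. The critical value was not corrected for the number of groups, so a flag such as this can arise by chance. For chi-miR-126-3p the same library, at 9095, lay within the range of the other catagen libraries, so that its ratio of 3p to 5p was 17.4, beside 30.5 to 36.3 in the others.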

How the results depend on the processing

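With 2 libraries in May and in September, and November values of chi-miR-144-5p and chi-miR-451-5p of at most 19 counts, library spread and depth limit these results. A fit that leaves a group with 1 library assumes that it varies like the other groups. In the fit above 50 CPM, chi-miR-144-5p and chi-miR-451-5p were not tested. The cause of the changes below was not tested.

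The number of miRNAs called from telogen to May, 7, was 4 with library totals, 13 with DESeq2 and with the likelihood-ratio test, 2 above 50 CPM, 16 with no minimum fold, 0 with only the groups compared and 15 with sex as a block. Leaving out 1 library gave 0 (male May) to 27 (male March), with 1 without the male February or the female May library and 2, 4 and 3 without the male November, female December or male December library. From May to September, 55 became 102 with no minimum fold and 27 (without female September) to 69 with 1 library left out, with 36 without the male May library. From September to catagen, 0 became 1 with RLE size factors, DESeq2 and the likelihood-ratio test, and 0 to 1 with 1 library left out (1 without male March or male November). From catagen to telogen, 32 became 14 above 50 CPM, 105 with no minimum fold and 11 without both November libraries, and 23 to 37 with 1 library left out. Between the sexes, 0 became 1 with the likelihood-ratio test and without a filter and was 0 to 0 with 1 library left out. For the sex difference of the telogen to catagen change, 4 became 11 with library totals and 21 with DESeq2 and with the likelihood-ratio test. The calls from May to September were 29 higher and 26 lower with TMM but 9 and 71 with library totals, and from catagen to telogen 19 and 13 but 43 and 5.

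The log2 change of the miR-126 arm ratio from catagen to telogen was -0.61 but not called without a filter (adjusted p = 0.0626, limma) or with sex as a block (adjusted p = 0.0506), and -0.34 without both November libraries. With 1 library left out it lay between -0.83 and -0.48, losing the call without the male February, either March, either May, either November or the male December library. That from telogen to May lay between -0.69 and -0.50, that from May to September between 1.27 and 1.34, and that from September to catagen between -0.24 and 0.12, positive only without the female December library. The log2 difference of the ratio of chi-miR-451-5p to chi-miR-126-3p lay between -2.25 and -1.36 (exact permutation p 0.0571 to 0.229).

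The call of chi-miR-451-5p from catagen to telogen was lost with only the groups compared (adjusted p = 0.0598, edgeR), with sex as a block (adjusted p = 0.0531) and without the male February, male March, male May, either September, either November or the female December library. That of chi-miR-144-5p was gained without the female February, female March or male December library. Directions turned for chi-miR-126-5p from telogen to May (-0.056 to 0.38, lowest without male February), chi-miR-144-5p from telogen to May (-1.13 to 0.077, highest without male March), chi-miR-451-5p from May to September (-0.31 with library totals, -0.16 without male May, and -0.41, without female September, to 0.67), chi-miR-126-3p from September to catagen (-0.0060, without male November, to 0.17) and from catagen to telogen (0.10 with library totals), and between the sexes for chi-miR-126-3p (0.018 and 0.083 in a range of -0.21 to 0.083) and chi-miR-451-5p (-0.19 and -0.12 in a range of -0.19 to 0.47) without the female or the male March library. None of these was called. Pearson's r of both miR-126 arms turned to 0.15 with library totals and 0.65 for deviations from the month means, which also gave -0.63 for chi-miR-126-5p with chi-miR-144-5p (0.71 with library totals), -0.76 for chi-miR-126-5p with chi-miR-451-5p and 0.67 for chi-miR-144-5p with chi-miR-451-5p.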
